A study of Homo sapiens with 4 samples.

Results

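Interferon beta and the lambda interferons are cytokines that epithelial cells make when they sense viral nucleic acid. The type I interferons, to which interferon beta belongs, signal through a receptor of the chains IFNAR1 and IFNAR2, which nearly all nucleated cells carry. The type III, or lambda, interferons signal through IL28RA paired with IL10RB, and IL28RA is largely limited to epithelia. Both receptors use kinases of the JAK family and the transcription factors STAT2 and IRF9. Interferon gamma, the type II interferon, has a receptor of its own, made of IFNGR1 and IFNGR2. The array design uses older names for the lambda genes: IL29 is IFNL1, IL28A is IFNL2, IL28B is IFNL3 and IL28RA is IFNLR1.

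The 10 genes described here were IFNB1, IL28A, IL28B and IL29 as ligands and IL28RA, IL10RB, IFNAR1, IFNAR2, IFNGR1 and IFNGR2 as receptor chains, out of 27193 gene names on the array. They were found by the gene name of each spot and were measured by 14 of 34127 probes, 4 for the ligands and 10 for the receptor chains, with 1 spot for each probe and array. All 10 passed the filter on dim probes, as did 22001 gene names in all. The genes were chosen from their measured difference between the groups of these same arrays, so that difference is described for them without a test.

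RNA came from MCF10A.B2 cells, MCF10A mammary epithelial cells with a chimeric Her2 (ErbB2) receptor that the crosslinker AP1510 activates. A control group of 2 arrays, whose genotype the labels give only as Ctrl, was compared with 2 arrays of cells with a shRNA targeting Pak1 (PAK1 shRNA), which the series text describes as stably expressed and Tet inducible. Cells of both groups were serum starved for 3 h and given AP1510 for 15 min. The labels give breast cancer as the diagnosis, although MCF10A is known as a non-tumorigenic line, and they call the other cells only control. The methods describe wild type cells of the line beside cells with the inducible shRNA, without saying which sample labels these match. The series text speaks of cells from separate tumors and the methods of the cell line, so the p-values measure the spread between these samples, which may be technical. Whether the control cells carry a non-targeting shRNA is not stated. An effect of carrying a shRNA and an effect of losing PAK1 therefore cannot be told apart.

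Samples were hybridized in 1 colour, and all 4 arrays lay on 1 slide. Between 78.9% and 83.2% of probes were well above background on an array. The correlation of normalized log2 intensities was 0.9974 between the control arrays, 0.9982 between the PAK1 shRNA arrays and 0.9486 to 0.9563 across the groups. All 8 basal epithelial markers, keratins 5 and 14 among them, were well above background on every array. PAK1, the target, read 11.19 and 11.27 in control cells and 10.44 and 10.52 after the shRNA, in normalized log2 intensity. The log2 difference of -0.75 (standard error 0.08) left 59.5% of the control level, with a Benjamini-Hochberg adjusted p of 0.000182 in limma. The number of arrays limits the precision of every value given here.

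The probes of 3 ligands are shown because they say what the arrays measured. Each has 60 bases, is written as deposited in the scanner files and lies in coding sequence. The IL28A probe is not printed.
IFNB1 probe: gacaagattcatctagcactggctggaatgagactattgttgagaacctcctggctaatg
IL28B probe: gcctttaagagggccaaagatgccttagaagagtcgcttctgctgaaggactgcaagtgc
IL29 probe: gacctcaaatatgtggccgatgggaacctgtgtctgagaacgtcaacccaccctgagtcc
The IFNB1 probe lies at chr9:21077535-21077594 (hg19) on the minus strand and the IL29 probe at chr19:39789091-39789150 on the plus strand. The IL28A probe lies at chr19:39760635-39760694 on the plus strand. The IL28B probe spans 353 bases of the genome, chr19:39735102-39735454 on the minus strand, so it crosses an exon junction. The scanner files list the transcripts of both IL28B and IL28A for this probe. A signal of the IL28B probe can therefore come from either transcript.

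The promoters of the ligands are shown because their genes are known targets of the interferon regulatory factors (IRFs) and NF-kappaB. Each sequence holds the 250 bases before the transcription start, from RefSeq (GRCh38.p14), written along the strand of the gene. Capitals mark matches to the IRF core AANNGAAA on either strand, to the kappaB consensus on either strand and to TATAAA on the strand of the gene.
IFNB1, chr9:21077943-21078192, minus strand: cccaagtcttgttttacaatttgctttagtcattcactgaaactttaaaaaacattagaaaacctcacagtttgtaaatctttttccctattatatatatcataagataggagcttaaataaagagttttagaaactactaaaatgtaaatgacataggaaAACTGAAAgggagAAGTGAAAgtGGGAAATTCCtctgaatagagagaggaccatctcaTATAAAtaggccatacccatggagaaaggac
IL29, chr19:39296157-39296406, plus strand: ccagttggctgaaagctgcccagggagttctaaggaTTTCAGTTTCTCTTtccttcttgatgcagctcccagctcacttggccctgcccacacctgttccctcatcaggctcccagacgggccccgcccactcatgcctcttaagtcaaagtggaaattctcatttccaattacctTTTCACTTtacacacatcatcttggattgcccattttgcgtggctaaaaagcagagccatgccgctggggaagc
IL28A, chr19:39268146-39268395, plus strand: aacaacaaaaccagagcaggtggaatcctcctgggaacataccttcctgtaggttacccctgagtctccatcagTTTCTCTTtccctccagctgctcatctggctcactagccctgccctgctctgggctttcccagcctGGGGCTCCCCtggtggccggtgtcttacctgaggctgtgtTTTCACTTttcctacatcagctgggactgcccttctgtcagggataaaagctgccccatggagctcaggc
IL28B, chr19:39245251-39245500, minus strand: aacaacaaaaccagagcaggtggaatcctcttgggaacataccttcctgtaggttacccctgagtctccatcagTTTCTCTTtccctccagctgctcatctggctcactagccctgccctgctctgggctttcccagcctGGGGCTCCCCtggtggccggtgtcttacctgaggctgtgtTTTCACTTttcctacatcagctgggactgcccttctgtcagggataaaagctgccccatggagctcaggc
The IFNB1 window held 2 IRF cores, from position -89 to -82 and from -76 to -69, a kappaB match from -66 to -57 and a TATAAA from -31 to -26, counted from the start. The IL29 window held 3 IRF cores and no kappaB match. A pair of these overlapped, from -214 to -201, and the other lay from -74 to -67. The IL28A and IL28B windows shared 249 of 250 bases (99.6%). Each held 2 IRF cores, from -176 to -169 and from -70 to -63, and 1 kappaB match from -110 to -101, whose letters match on both strands. RefSeq has a further window for IL28B, from another start, with none of these letters.
Among 35116 promoter windows of the same length, 20.3% held an IRF core and 4.54% held 2 or more. The kappaB consensus stood in 9.96% and TATAAA in 6.80%. The AP-1 letters TGANTCA, found in 6.57% of the windows, were in none of the ligand windows. Of the receptor chains with a window, IL28RA, IL10RB, IFNAR1 and IFNGR1 had none of these letters in any of their windows, and IFNGR2 had 3 kappaB matches. IFNAR2 was not matched. A match is a description of letters, not of binding.

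All 4 ligands had far higher signals in PAK1 shRNA cells than in control cells. The control signals of IFNB1 and IL28B lay near or at background, while those of IL28A were clearly above it. The arrays measured RNA of whole cultures, so more cells making a ligand and more ligand RNA per cell cannot be told apart. The level of a gene is not set against that of another gene, since each probe binds with its own strength.

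**Figure D1:**
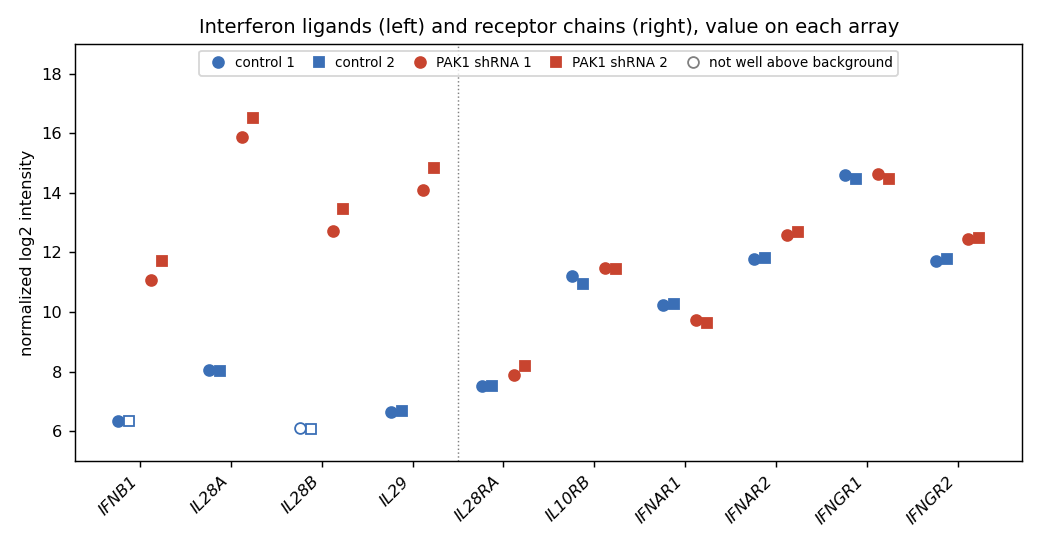
Normalized log2 intensity on the vertical axis for the 4 ligands and 6 receptor chains, with 1 symbol for each of the 2 control and 2 PAK1 shRNA arrays and open symbols where the probe was not well above background. The PAK1 shRNA arrays of each ligand lie apart from its control arrays, by 5.04 for IFNB1 and 8.16 for IL28A on the log2 scale, while the receptor chains differ by less than 1. Heights are not compared between genes.

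IFNB1, the single interferon beta gene, had normalized log2 intensities of 6.35 and 6.34 in control cells, against 11.07 and 11.71 in PAK1 shRNA cells. It was well above background on 1 of the 2 control arrays and on both PAK1 shRNA arrays. The group means were 6.35 ± 0.01 and 11.39 ± 0.45 (SD, n = 2). The groups did not overlap, and the gap was several times the spread between the PAK1 shRNA arrays. The log2 fold change was 5.04 (standard error 0.19), a 33.0-fold difference. With a control signal measured on 1 array, this size depends on the processing more than those of IL28A and IL29, as given further on.

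IL29, the lambda 1 interferon, had normalized log2 intensities of 6.64 and 6.67 in control cells, against 14.11 and 14.83 in PAK1 shRNA cells. It was well above background on all 4 arrays. The means were 6.65 ± 0.02 and 14.47 ± 0.51 (SD, n = 2), with no overlap. The log2 fold change was 7.82 (standard error 0.21), or 226-fold.

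IL28A, the lambda 2 interferon, gave normalized log2 intensities of 8.05 and 8.02 in control cells, against 15.87 and 16.53 in PAK1 shRNA cells. The means were 8.04 ± 0.02 and 16.20 ± 0.46 (SD, n = 2). It was well above background on all 4 arrays, and its control signals before any correction were 321 and 247 against a local background of 47.5 and 48.0. The log2 fold change was 8.16 (standard error 0.20), or 287-fold.

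IL28B, the lambda 3 interferon, was not well above background on either control array, where its normalized log2 intensities were 6.10 and 6.09. On the PAK1 shRNA arrays they were 12.74 and 13.46, both well above background, with a mean of 13.10 ± 0.51 (SD, n = 2). Since control cells gave only an upper limit, the rise of IL28B in PAK1 shRNA cells was at least 128-fold under this processing. This bound sets the PAK1 shRNA mean against the higher, on each control array, of the probe's own value and the lowest signal well above background. That lowest signal was 5.65 on both control arrays, so the probe's own value was used on each. The bound therefore equals the fold between the group means, and its size depends on the processing, as given further on. The overlap of the IL28B and IL28A transcripts on this probe holds for the bound as well.

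The same separation stood in the scanner signals before any correction. IFNB1 read 76.4 and 63.5 in control cells against 1783 and 2779.8 in PAK1 shRNA cells. IL28A read 321 and 247 against 50655 and 82046, and IL29 97.6 and 82.9 against 14934 and 24956. IL28B read 51.3 and 46.6 in control cells, close to its local background of 40.0 on both arrays, and 5712 and 9668 in PAK1 shRNA cells. The local backgrounds of the 4 ligand spots lay between 40.0 and 51.0 on all arrays. No ligand spot was saturated or marked as an outlier.

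**Figure D2:**
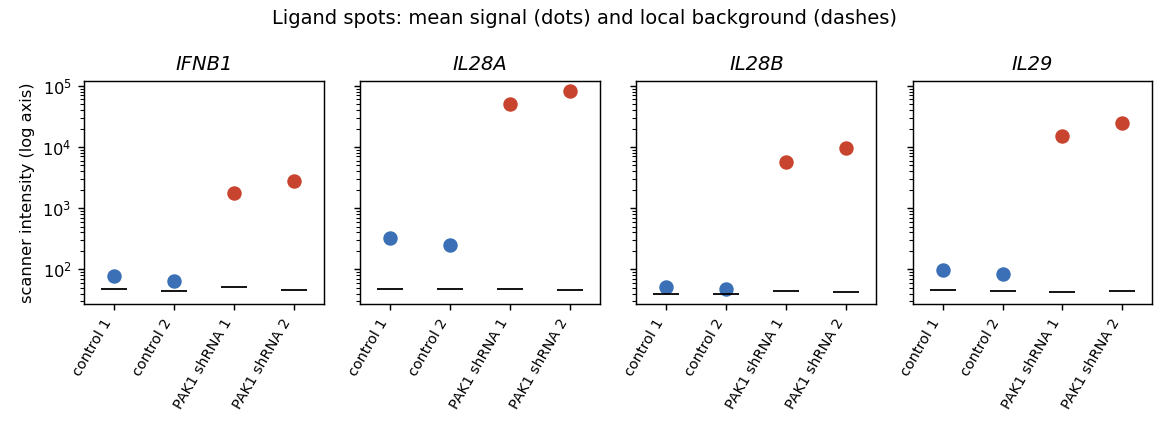
Scanner intensity on a log axis for the spot of each ligand on the 4 arrays, with dots for the mean signal and dashes for the local background, before any correction. The local background is alike on all arrays (40.0 to 51.0), the IL28B dots of the control arrays (51.3 and 46.6) sit just above it, and the PAK1 shRNA dots lie far above it for every ligand.

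The ligands varied together between the PAK1 shRNA arrays. All 4 were higher on replicate 2 than on replicate 1, by 0.64 for IFNB1, 0.66 for IL28A, 0.73 for IL28B and 0.73 for IL29 on the log2 scale. Such a gap was uncommon: 99.4% to 99.6% of the genes tested had a smaller absolute difference between these arrays, whose median over all genes was 0.08. Among 7389 genes with a mean log2 intensity above 11 in PAK1 shRNA cells, 0.230% differed by more than 0.6. Between the control arrays, where the ligands were dim, they differed by at most 0.03 in either direction. The receptor chains other than IL28RA differed by -0.17 to 0.10 between the PAK1 shRNA arrays, and IL28RA by 0.32. The genes of the interferon response, listed further on, had a median difference of 0.16, with 18 of 20 higher on replicate 2. Replicates carry no order, and the source of the gap was not tested.

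The genes whose pattern over the 4 arrays was nearest to that of IL29 were CCL5, XAF1 and IFIT1. Likeness was the Euclidean distance between log2 values set relative to the control mean, and a smaller distance is a closer match. CCL5, a chemokine that attracts T cells, stood at a distance of 0.16, with a log2 fold change of 7.83 and a difference of 0.87 between the PAK1 shRNA arrays. XAF1, an interferon-inducible gene, stood at 0.43 and IFIT1, an antiviral RNA-binding protein, at 0.52. XAF1 was not well above background on either control array, so its rise is a bound, at least 222-fold under this processing. As for IL28B, this bound equals the fold between the group means. The distance of XAF1 rests on control values at background. CCL5 was well above background on 1 control array and IFIT1 on both.

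The receptor chains changed far less than the ligands, and not all in 1 direction. With limma and a Benjamini-Hochberg adjusted p under 0.05, 31.0% of all genes tested were called higher and 31.9% lower in PAK1 shRNA cells. All 4 ligands were called higher, and of the 6 receptor chains 4 were called higher, 1 lower and 1 neither. Both PAK1 shRNA arrays lay above both control arrays for the 4 ligands and for 4 receptor chains, against 42.1% of all genes. The genes were chosen from this contrast, so nothing is read from these counts. An exact two-sided permutation test of 1 gene with 2 arrays against 2 cannot go below 0.333.

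IFNAR1 and IFNAR2, the chains of the interferon beta receptor, went in opposite directions. IFNAR1 (probe at chr21:34732064-34732123) gave normalized log2 intensities of 10.24 and 10.26 in control cells, against 9.74 and 9.63 in PAK1 shRNA cells. The difference of -0.57 on the log2 scale (standard error 0.08) left 67.5% of the control level. It was the 1 receptor chain with both PAK1 shRNA arrays below both control arrays.

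IFNAR2, the chain that binds type I interferon with the higher affinity, had 3 probes. The brightest (chr21:34635002-34635061) gave 11.77 and 11.83 in control cells against 12.57 and 12.68 in PAK1 shRNA cells. The difference on the log2 scale was 0.82 (standard error 0.08), or 1.77-fold. A further probe of the same transcript (chr21:34625061-34625120) gave 10.35 and 10.31 against 11.27 and 11.36, a log2 fold change of 0.98 (standard error 0.08 in a fit over probes). The probe listed for another IFNAR2 transcript (chr21:34635969-34636028) gave 8.71 and 8.05 against 9.58 and 9.74. Its control arrays stood apart from each other (SD 0.47), and its log2 fold change of 1.28 had a standard error of 0.20. All 3 probes were higher on both PAK1 shRNA arrays than on both control arrays.

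IL28RA, the chain specific to the lambda receptor, gave no single picture over its 3 probes. The brightest (chr1:24480767-24480826) gave 7.51 and 7.53 in control cells against 7.87 and 8.19 in PAK1 shRNA cells, a log2 fold change of 0.51 (standard error 0.11). The probe at chr1:24483837-24483896, listed for the same transcript, gave 6.59 and 6.61 against 6.63 and 6.51, with overlapping groups. The probe of another transcript (chr1:24495991-24496050) gave 6.49 and 6.39 against 6.46 and 6.46, also overlapping. The dimmer probes had log2 fold changes of -0.03 and 0.02 (standard errors 0.08 and 0.08 in the fit over probes), and the last was not well above background on 1 control array. The mean over the 3 probes was 0.17.

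IL10RB, which the lambda receptor shares with the receptors of several IL-10 family cytokines, gave 11.22 and 10.94 in control cells against 11.47 and 11.45 in PAK1 shRNA cells (chr21:34668516-34668575). The log2 fold change was 0.38 (standard error 0.10). The groups did not overlap, but the control arrays differed by 0.27 and the nearest arrays of the groups by less, so the size rests largely on which control array is used: it was 0.24 without control replicate 2 and 0.51 without control replicate 1.

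IFNGR2 and IFNGR1, the chains of the interferon gamma receptor, also differed from each other. IFNGR2, the signalling chain (chr21:34809222-34809281), gave 11.73 and 11.80 in control cells against 12.46 and 12.49 in PAK1 shRNA cells. The difference on the log2 scale was 0.72 (standard error 0.07), or 1.64-fold. IFNGR1, the ligand-binding chain (chr6:137518878-137518937), gave 14.59 and 14.47 in control cells and 14.64 and 14.47 in PAK1 shRNA cells. The IFNGR1 groups overlapped, and the difference of 0.03 (standard error 0.09) was within the spread between arrays.

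**Figure D3:**
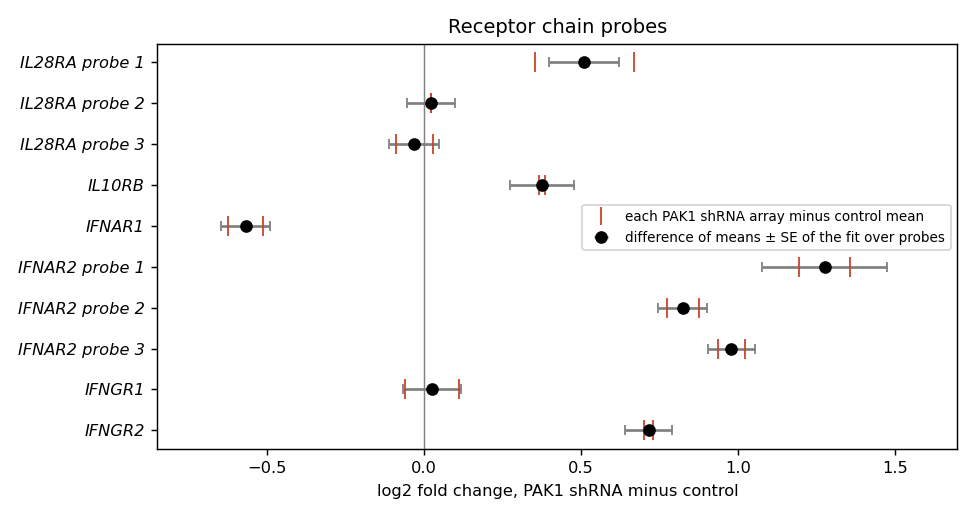
Log2 fold change (PAK1 shRNA minus control) on the horizontal axis for each of the 10 receptor chain probes, with dots for the difference of means, bars for its standard error and ticks for each PAK1 shRNA array minus the control mean. The 3 IFNAR2 probes lie right of 0 (0.82 to 1.28), IFNAR1 lies left (-0.57), and 1 of the 3 IL28RA probes lies right while the others lie at 0.

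IFNAR2, IL10RB, IFNAR1 and IFNGR2 are neighbours on chromosome 21. Within 1000000 bases on either side of their probes (chr21:33625061-35809281), 29 other genes were tested, of which 4 were called higher and 15 lower. Their median log2 fold change was -0.26, against 0.02 over all genes tested, of which 31.0% were called higher and 31.9% lower. IFNAR1 thus moved in the direction of most called neighbours, and the other 3 chains opposite to it.

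Of 17 other interferon genes, 13 were found on the array by name and 3 were well above background on both arrays of a group. IFNE, the interferon epsilon of epithelia, rose by 1.12 on the log2 scale (standard error 0.07, adjusted p = 2.21e-05 from limma). IFNA4 rose by 0.65 (standard error 0.10, adjusted p = 0.00126 from limma), and IFNA21 had a log2 fold change of 0.04 (adjusted p = 0.699 from limma). The interferon alpha genes are near-identical copies, so their probes may share signal.
The gene of interferon gamma, IFNG, the interferon omega gene IFNW1 and 6 interferon alpha genes (IFNA2, IFNA6, IFNA7, IFNA8, IFNA14 and IFNA16) were well above background on no array. IFNA10 was so on 1 PAK1 shRNA array alone (8.34, against 6.03 on the other), and IFNK on 1 control array alone (7.03, against 6.02). IFNA1, IFNA5, IFNA13 and IFNA17 were not analysed here. The median of the 3 tested genes was 0.65.

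Of all genes tested, 31.0% were called higher and 31.9% lower. Of 12 genes that carry or restrain the signal of these receptors, 9 rose, none fell and 3 did not pass the test. The median log2 fold change was 1.94, against 0.02 over all genes, and 0.72 over the 11 genes that the authors' processed values cover. USP18, which blocks signalling at IFNAR2, rose by 5.88 (standard error 0.09, adjusted p = 2.04e-07 from limma). SOCS1, an inhibitor of the JAK kinases, rose by 5.62 (standard error 0.12, adjusted p = 4.82e-07). The transcription factors STAT2 and IRF9 rose by 3.72 and 3.17, and the kinases JAK2 and JAK1 by 3.22 and 0.72 (named after their values were seen). TYK2, the kinase bound to IFNAR1, had a log2 fold change of -0.01 (adjusted p = 0.949). STAT3, among the 9, rose by 0.22 (adjusted p = 0.0363 from limma, named after its value was seen). Its call was lost with the authors' processed values (adjusted p = 0.065) and as the mean over probes (0.08, adjusted p = 0.402).

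Of 19 genes that sense nucleic acid or switch interferon genes on, 17 were called higher and 2 lower, against 31.0% and 31.9% of all genes tested. The list median was 1.12, against 0.02 over all genes. TRAF3, among the 17, rose by 0.26 (adjusted p = 0.0411 from limma, named after its value was seen). Its call was lost without a filter (adjusted p = 0.0525) and with the background estimate on all spots (adjusted p = 0.0563). IRF7, an interferon regulatory factor, rose by 6.43 (standard error 0.11, adjusted p = 2.96e-07 from limma). The RNA sensors IFIH1 and DDX58 rose by 5.52 (standard error 0.12, adjusted p = 4.82e-07) and 5.37 (standard error 0.08, adjusted p = 2.71e-07). IRF5 fell by 0.39 (standard error 0.09, adjusted p = 0.00954; named after its value was seen), a call lost without PAK1 shRNA replicate 2 (adjusted p = 0.0562). MAVS, the adaptor of both sensors, was called lower by its brightest probe, at -0.25 on the log2 scale (standard error 0.08, adjusted p = 0.0303), but its other probes gave 0.42 and 0.88. As the mean over its 3 probes it was called higher, with 0.35 (adjusted p = 0.0039), so the arrays give MAVS no settled direction. The call of the brightest probe was also lost without control replicate 1 and without either PAK1 shRNA replicate (adjusted p = 0.112, 0.102 and 0.107).

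All 20 genes of the interferon response list were called higher, against 31.0% of all genes tested. The list median was 6.77, against 0.02 over all genes. CXCL10, a chemokine, rose by 11.17 (standard error 0.21, adjusted p = 3.19e-07 from limma), RSAD2, an antiviral enzyme, by 11.02 (standard error 0.13, adjusted p = 1.15e-07) and IFIT2, an antiviral RNA-binding protein, by 8.76 (standard error 0.08, adjusted p = 7.74e-08). MX1, an antiviral GTPase, had the smallest rise in this list, 2.24 (standard error 0.13, adjusted p = 1.58e-05). The study chose CXCL10, MX2, STAT2, IFIT2, IFIH1, OAS3, IRF7 and IRF9 for display from these arrays, so the counts of the lists that hold them are not independent evidence of direction.

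The 6 other class II cytokine receptors are of the family to which all 6 receptor chains belong. They split evenly, with 3 called higher and 3 lower, against 31.0% and 31.9% of all genes tested. Their median of 0.23 had no settled sign: it was -0.02 with the background estimate on all spots and 1.14 with the processed signals. F3, the tissue factor, rose by 2.83 (standard error 0.12, adjusted p = 4.85e-06 from limma). IL22RA1, the partner of IL10RB in the receptor for IL22, rose by 2.71 (adjusted p = 1.39e-06) and IL10RA, its partner in the receptor for IL10, by 1.10 (adjusted p = 0.00304), although IL10RA was well above background on only 1 control array. IL22RA2, a soluble decoy receptor, fell by 1.53 (adjusted p = 9.22e-06), IL20RA fell by 1.20 (adjusted p = 7.82e-05) and IL20RB fell by 0.63 (adjusted p = 0.00146). However, IL20RA was well above background on only 1 PAK1 shRNA array.

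The IL-10 family cytokines, relatives of the lambda interferons, did not move as a group. Of 5 tested, IL24 rose by 3.92 (standard error 0.22, adjusted p = 1.26e-05 from limma). The other 4, IL10, IL19, IL20 and IL26, had log2 fold changes of 0.02, 0.05, 0.01 and 0.43 (adjusted p = 0.87, 0.708, 0.953 and 0.14). IL22 was well above background on no array. The median was 0.05.

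Markers of other cells moved with the groups in part, and within most lists in both directions. Sums over a list are of normalized intensities on the linear scale, in which bright probes weigh most. Of 5 plasmacytoid dendritic cell markers, 4 were well above background on every array and the defining CLEC4C on none. Their sum was 4202 and 4467 in control cells and 8046 and 8978 in PAK1 shRNA cells, while the median log2 fold change was -0.07. TCF4 rose by 1.10, IL3RA fell by 0.50 (adjusted p = 0.00206 from limma), and SPIB and LILRA4 had -0.17 and 0.04 (adjusted p = 0.0999 and 0.683).
All 12 leukocyte markers were well above background on every array, with a sum of 27380 and 29822 in control cells and of 58918 and 61966 in PAK1 shRNA cells. Of these, 6 were called higher and none lower, where 31.0% of all genes tested were called higher and 31.9% lower. The median was 0.24. The 6 were CD14, CSF1R, CD79A, ITGAM, CD2 and CD163, which rose by 1.32, 0.66, 0.48, 0.46, 0.35 and 0.20. The T cell markers CD3D and CD3E and the leukocyte marker PTPRC had log2 fold changes of 0.29, 0.14 and 0.13 (adjusted p = 0.062, 0.14 and 0.221 from limma). Of 7 fibroblast markers, 3 (COL1A2, COL3A1 and PDGFRA) were well above background on no array, and the sum was 4165 and 4915 against 8019 and 8217. LUM, DCN and COL1A1 rose by 1.79, 0.88 and 0.87. PDGFRB fell by 0.58, although it was well above background on only 1 PAK1 shRNA array.
The luminal epithelial markers were well above background for 6 of 7 genes, with sums of 160120 and 164850 against 208210 and 230230. Of the 6, 2 were called higher and 2 lower, against 31.0% and 31.9% of all genes tested. The basal markers summed to 465410 and 518400 in control cells and to 612280 and 651370 in PAK1 shRNA cells, but 4 of the 8 were called lower and 3 higher, with a median of -0.40. KRT5, TP63, KRT14 and KRT17 fell, with log2 fold changes of -1.14, -1.13, -0.95 and -0.72, while LAMB3, CDH3 and KRT6A rose by 1.34, 0.90 and 0.31. The part of such cells in the ligand signals was not tested.

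The sizes of the ligand differences depended on the processing. A local background above 100 was read for 8 and 17 spots of the control arrays and for none of the PAK1 shRNA arrays. The values reported above leave spots of flagged background out of the background estimate. With all spots in it, the log2 fold changes of IFNB1, IL29 and IL28A were 3.55, 6.36 and 7.30, and IL28B rose at least 39.2-fold. With the signals the scanner software had processed, scaled to the 75th percentile of each array in place of quantile normalization, they were 7.32, 9.46 and 8.68, and IL28B was at least 868-fold higher. The direction was the same for each ligand under every setting tried, and with each array left out in turn IFNB1 lay between 4.72 and 5.36, IL28A between 7.83 and 8.49, IL29 between 7.45 and 8.18 and the IL28B bound between 99.8-fold and 165-fold.

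**Figure D4:**
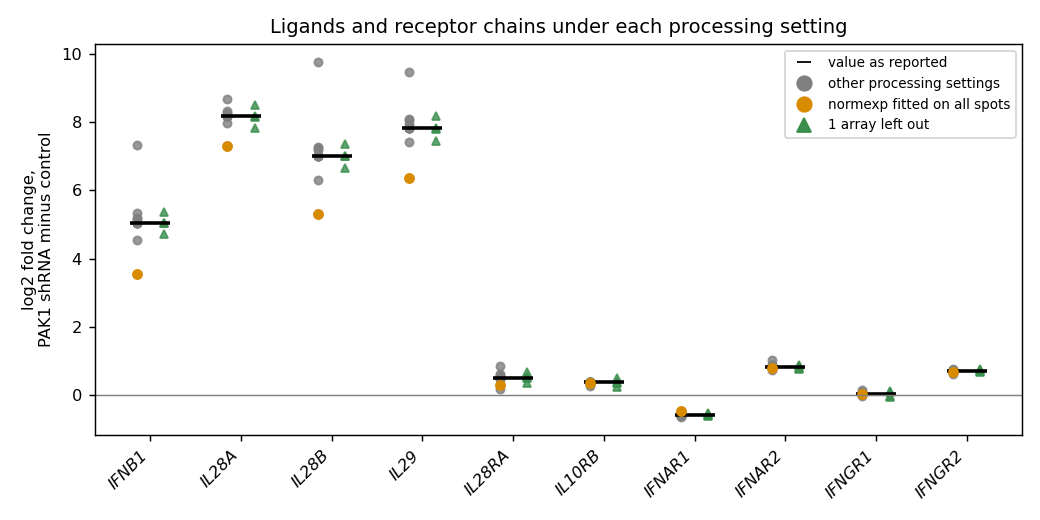
Log2 fold change (PAK1 shRNA minus control) on the vertical axis for each ligand and receptor chain under every setting, with bars for the value reported, grey dots for the alternatives, orange dots for the background estimate on all spots and triangles for fits without 1 array. IL28B is drawn as the log2 of its lower bound. The ligands span a wide range of sizes (3.55 to 7.32 for IFNB1), all above 0, and IFNGR1 lies on both sides of 0 (-0.06 to 0.16).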

How the data were processed

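RNA of MCF10A.B2 cells was labelled with Cy3 and hybridized to Agilent whole genome arrays, 2 control and 2 PAK1 shRNA. The authors deposited the scanner intensity of every spot as written by Agilent Feature Extraction (9.5.3.1 in the file headers, 9.5 in the submitters' processing notes), not normalized between arrays. A table of processed log2 values deposited by the authors served as an alternative; its column medians were 9.42, 9.42, 9.40 and 9.40, it held values for 24302 probes, among them all 14 described, and its correlation with the values here was 0.9995. Its offset and centring are not given in the sources used here.

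Mean signals were background corrected with normexp (offset 50) and the local median background, and non-control spots were quantile normalized, with limma 3.58.1 in R 4.3.3. The methods name normexp, quantile normalization and limma, but no offset, filter or probe rule. Spots of flagged background were left out of the normexp estimate, because with them its mean was -666 and -740 on the control arrays against -10.7 and -10.2 on the PAK1 shRNA arrays; without them it was -9.19, -12.1, -10.4 and -9.78. Spots with outlier flags were left out and spots of a probe averaged. A probe was kept where both arrays of either group read it as well above background, and each gene was represented by its brightest kept probe. Genes were tested with lmFit and eBayes and Benjamini-Hochberg adjustment over 22001 genes (threshold 0.05), with no block: there was 1 slide, and the correlation of the deviations of same-numbered arrays was 0.00881 over 27517 probes. The procedure was tested on simulated data.

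Probe positions are those of the scanner files (hg19). RefSeq (GRCh38.p14) gave current symbols and promoters. The genes described, the lists and the rule for genes named were chosen with earlier results of these data known. Named by rule were the 10 genes, PAK1, all tested genes of the 3 short lists, the 3 largest and the smallest changes of the other lists, and the 3 nearest in pattern to IL29; 1 gene the rule names is not reported here. Alternatives changed the normalization, the background correction, the signal column (which came with 75th percentile scaling), the dim-probe filter, the flags, the probe rule, the test and the arrays kept, or used the authors' values or a replicate block.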

Additional observations from a re-analysis of the deposited data

How the results depend on the processing

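Of 158 values of the 10 genes under alternative settings, 140 moved by less than the spread between replicates and 18 by more. None changed the direction of a called gene. Many of the values had little room to move: another test, filter, flag rule or block left the fold change itself unchanged. Leaving out an array moved it by only part of the gap between replicates. The tally is therefore no measure of robustness by itself. PAK1 stayed between -0.86 and -0.66. IL28RA was 0.17 as the mean over its probes and 0.86 with the processed signals. IFNB1 and IL28B have no value where a probe had to be well above background on all 4 arrays. Without a background correction IFNB1 was 4.55 and IL28B at least 79.4-fold higher. Median centring shifted the median of all genes from 0.02 to 0.14 on the log2 scale, and the processed signals with 75th percentile scaling to 0.12. Over all settings IFNAR1 stayed between -0.65 and -0.46, IFNAR2 between 0.74 and 1.03 and IFNGR2 between 0.63 and 0.76. The methods' t-test, which the methods name for the study in general while they name limma for the arrays, gave 5893 higher and 6223 lower genes at an unadjusted p under the threshold, and 4370 and 4764 after adjustment, against 6822 and 7008 with limma. It called 1 of the 3 other interferons in place of 2, 4 of the 6 class II receptors and 13 of the 19 induction genes. Of the IL-10 family cytokines, 4 were called under median centring, 2 with the replicate block and 1 to 2 with each array left out, against 1. With the replicate block 6973 genes were higher and 7070 lower. The deviations of same-numbered arrays had a correlation of 0.00881, which does not show whether those samples were handled together. Leaving out each array in turn gave 5794 to 6405 higher and 6035 to 6615 lower genes, where the lone array of a group was taken to vary as the pair does. The median of the other interferons was 0.04 over the 13 genes tested without a filter and 0.40 over the 4 tested without control replicate 2. In the main setting 3 were tested, so these medians are not of the same genes. That of the class II receptors was 1.04 over the 4 of 6 genes left where all 4 arrays had to be well above background. It was 0.38 with the authors' values, and 0.39 and 0.08 without PAK1 shRNA replicate 1 and 2. That of the IL-10 family was 0.53 with the processed signals and 0.31 under median centring, and IL26 was called higher without PAK1 shRNA replicate 1 (0.82, limma adjusted p = 0.000743). Dim probes limit the ligands: the control values of IFNB1 and IL28B lay near background, and their folds ranged most widely across settings.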
